A study of Mus musculus with 6 samples.

Results

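Glycogen synthesis and breakdown were followed through 9 genes chosen by function: Gys2, Gbe1, Ugp2, Pygl, Ppp1r3b, Ppp1r3c, Ppp1r3g, Phka2 and Phkg2. Their symbols were matched to the Ensembl identifiers of the deposited tables with GENCODE vM21. All 9 were found among the 54532 identifiers, and all 9 passed the filter on low values, so no gene of the group was left out. Liver RNA of untreated mice was sequenced in 3 libraries labelled WT and 3 labelled Arid2 LKO, a liver-specific knockout of Arid2. ARID2 belongs to PBAF, a complex that remodels chromatin. The labels and other sources used here do not state what drives the deletion, or the age and sex of the mice.

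Glycogen is the store of glucose in the liver. UDP-glucose made by UGP2 is added to growing chains by glycogen synthase (GYS2 in liver), and GBE1 introduces the branch points. Breakdown starts with glycogen phosphorylase (PYGL in liver), which phosphorylase kinase switches on by phosphorylation. Protein phosphatase 1 (PP1), brought to the glycogen particle by targeting subunits of the PPP1R3 family, activates synthase and inactivates phosphorylase. Insulin after a meal favours storage, and glucagon and adrenaline favour release.

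Values were FPKM, which are relative to gene length and to a library scale, with 13947786 to 18159285 reads recovered per library. That scale followed median-of-ratios size factors (ratios of 0.983 to 0.992) more closely than sums of reads (0.863 to 1.08), and such factors centre the median gene of each library near 0. No label ties each library to its own animal, so the p-values reflect only variation among these 6 samples, which may be technical. Arid2 itself did not separate the groups: it averaged 2.06 ± 0.514 FPKM in WT and 1.97 ± 0.614 in LKO (mean ± SD, n = 3 libraries per group, limma adjusted p = 0.974). Genotypes below are therefore as labelled. All 9 hepatocyte markers examined, such as albumin, were above 0 in every library, with sums of 44314 to 58860 FPKM in WT and 49341 to 67746 in LKO. Both libraries numbered 1 stood apart from the other 4, with 2003 (WT) and 2368 (LKO) genes at 1 to 5 reads against 3913 to 4263. In bulk liver, fewer cells of a type and less RNA per cell cannot be told apart.

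None of the 9 glycogen genes passed the test between genotypes. By limma-trend on log2(FPKM + 1), 0 of 9 passed an adjusted p of 0.05 in either direction, where 0.0428% of all 11672 genes tested did (0.00857% higher and 0.0343% lower in LKO). At an unadjusted p under 0.05 the count was also 0 of 9, against 9.22% of all genes, and voom on recovered reads called 0 of 9. Groups overlapped for every one of the 9, whereas 15.4% of all genes had groups that did not overlap. Log2 differences, LKO minus WT, ran from -0.34 to 0.40, with a median of -0.02 beside 0.03 over all genes tested. Their 95% intervals were wide for several genes and left room for changes of more than 2-fold, so the data do not show that the genotypes were alike.

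**Figure D1:**
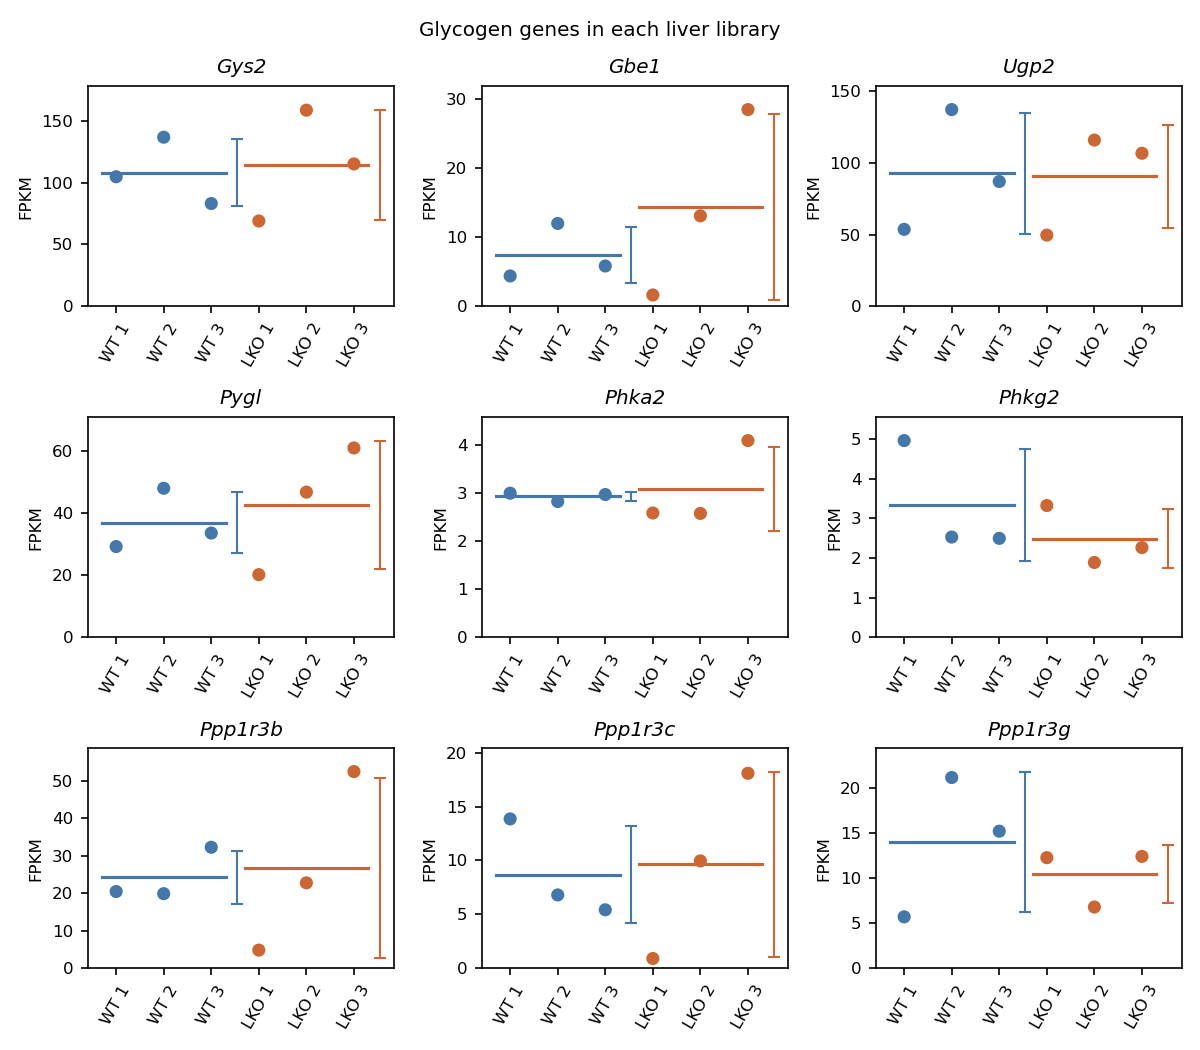
FPKM of each glycogen gene in the 3 WT (blue) and 3 LKO (orange) liver libraries; horizontal lines are group means and the bars beside them are 1 SD. Groups overlap in every panel, and LKO 1 and LKO 3 lie at opposite ends for Gbe1, Pygl, Ppp1r3b and Ppp1r3c.

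Gys2, the synthase of liver (ENSMUSG00000030244, chromosome 6, 142422613 to 142473109, minus strand, mm10), measured 105, 137 and 83.2 FPKM in the WT libraries (replicates 1 to 3, the order kept below). The LKO libraries had 69.0, 159 and 115 FPKM. LKO replicate 1 was thus the lowest and LKO replicate 2 the highest of the 6. Group means were 108 ± 27.0 and 114 ± 44.9 FPKM, a log2 difference of 0.03 ± 0.40 (SE; 95% interval -0.90 to 0.95, limma adjusted p = 0.991). Its sign turned with single libraries left out, from -0.25 without LKO replicate 2 to 0.35 without LKO replicate 1.

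Ugp2, which makes the UDP-glucose that synthase uses (ENSMUSG00000001891, chromosome 11, 21321138 to 21371201, minus strand), was at 53.6, 137 and 87.0 FPKM in WT and at 49.6, 116 and 107 in LKO. Both replicate 1 libraries were its lowest, at nearly the same level in either genotype. The log2 difference was -0.02 ± 0.48 (SE; limma adjusted p = 0.996), and it lay between -0.36 without WT replicate 1 and 0.36 without LKO replicate 1.

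Gbe1, the branching enzyme (ENSMUSG00000022707, chromosome 16, 70313949 to 70569716, plus strand), was at 4.37, 11.96 and 5.81 FPKM in WT and at 1.62, 13.1 and 28.4 in LKO. The LKO libraries therefore held its lowest value, from 110 reads, and its highest, from 2890 reads. Means were 7.38 ± 4.03 FPKM (WT) and 14.4 ± 13.5 (LKO). The log2 difference of 0.40 ± 0.84 (SE) had a 95% interval of -1.56 to 2.35 (limma adjusted p = 0.931). The direction rested on single libraries: the log2 difference was -0.36 without LKO replicate 3 and 1.38 without LKO replicate 1, where both remaining LKO values exceeded WT (limma adjusted p = 0.282), as those of 38.7% of all genes then lay apart in either direction and 21.2% above.

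Pygl, the phosphorylase of liver (ENSMUSG00000021069, chromosome 12, 70190811 to 70231488, minus strand), was at 29.1, 47.9 and 33.5 FPKM in WT and at 20.1, 46.6 and 60.8 in LKO. Again LKO replicate 1 was lowest and LKO replicate 3 highest. Means were 36.8 ± 9.80 and 42.5 ± 20.7 FPKM (log2 difference 0.10 ± 0.45 SE, 95% interval -0.95 to 1.15, limma adjusted p = 0.972). Without LKO replicate 3 the difference was -0.22, and without LKO replicate 1 it was 0.55.

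Phosphorylase kinase is built of regulatory alpha and beta subunits, a catalytic gamma subunit and calmodulin. Phka2, the alpha subunit of liver (ENSMUSG00000031295, chromosome X, 160502166 to 160598878, plus strand), was the steadiest of the 9 genes in WT, at 2.99, 2.82 and 2.96 FPKM. In LKO it was at 2.58, 2.57 and 4.09 FPKM, so LKO replicates 1 and 2 lay below every WT library and LKO replicate 3 above (log2 difference 0.04 ± 0.23 SE, limma adjusted p = 0.981). The difference was -0.13 without LKO replicate 3, where both remaining values lay below WT (30.2% of all genes then lay apart, 14.8% below), and 0.12 without LKO replicate 2.

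Phkg2, the catalytic subunit of liver (ENSMUSG00000030815, chromosome 7, 127573340 to 127583307, plus strand), was at 4.97, 2.53 and 2.497 FPKM in WT and at 3.33, 1.89 and 2.26 in LKO. In both genotypes replicate 1 was the highest, and the groups overlapped through it. Its log2 difference of -0.28 ± 0.30 (SE; 95% interval -0.97 to 0.41, limma adjusted p = 0.842) had the smallest p of the 9, and its sign held with each library left out (-0.45 to -0.03). It was -0.45 without LKO replicate 1, where both remaining LKO values lay below WT (as for 17.5% of all genes), and -0.03 without WT replicate 1. Exons of Ccdc189 on the opposite strand cover 21.9% of the exonic bases of Phkg2. Ccdc189 was at a mean of 0.275 FPKM, and no source used here says whether counting was stranded.

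Of the PP1 targeting subunits, Ppp1r3b and Ppp1r3c varied most within LKO and Ppp1r3g within WT. Ppp1r3b, the subunit known as GL and abundant in liver (ENSMUSG00000046794, chromosome 8, 35375739 to 35388139, plus strand), was at 20.5, 19.9 and 32.2 FPKM in WT and at 4.82, 22.8 and 52.4 in LKO. Ppp1r3c, also called protein targeting to glycogen (ENSMUSG00000067279, chromosome 19, 36731731 to 36736653, minus strand), was at 13.8, 6.79 and 5.42 FPKM in WT and at 0.897, 9.95 and 18.1 in LKO. For both genes LKO replicate 1 lay below, and LKO replicate 3 above, all 3 WT libraries, while LKO replicate 2 lay within WT. The log2 differences were -0.34 ± 0.74 (SE; 95% interval -2.07 to 1.40, limma adjusted p = 0.936) for Ppp1r3b and -0.30 ± 0.81 (SE; 95% interval -2.20 to 1.60, limma adjusted p = 0.951) for Ppp1r3c. Both turned positive without LKO replicate 1, to 0.53 and 0.67, and were -1.06 and -0.99 without LKO replicate 3. Mean FPKM was instead higher in LKO for both genes. The means were 24.2 ± 6.98 (WT) and 26.7 ± 24.0 (LKO) for Ppp1r3b, and 8.69 ± 4.52 and 9.64 ± 8.60 for Ppp1r3c. The direction therefore depended on the scale. The deposited values of Ppp1r3c did not fall on whole reads with its length in GENCODE vM21, so its level per length is approximate.

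Ppp1r3g, a targeting subunit described in liver as regulated by feeding (ENSMUSG00000050423, chromosome 13, 35958839 to 35970388, plus strand), behaved differently, with its wider spread in WT. It was at 5.70, 21.2 and 15.2 FPKM in WT and at 12.3, 6.79 and 12.4 in LKO, so the LKO values all lay inside the WT range. The log2 difference was -0.27 ± 0.48 (SE; limma adjusted p = 0.923). It was -0.77 without WT replicate 1, where both remaining WT libraries exceeded LKO (22.4% of all genes then lay apart, 10.6% with LKO below), and 0.10 without WT replicate 2.

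The make-up of the 3 targeting subunits differed from library to library. Summed over Ppp1r3b, Ppp1r3c and Ppp1r3g, levels were 40.0, 47.8 and 52.9 FPKM in WT and 18.0, 39.5 and 82.9 in LKO, with means of 46.9 ± 6.49 and 46.8 ± 33.1. Ppp1r3b made up 41.5% to 61.0% of the sum in WT, 57.6% and 63.2% in LKO replicates 2 and 3, and 26.8% in LKO replicate 1. In LKO replicate 1 most of the sum (68.2%) was Ppp1r3g, against 14.2% to 44.2% in WT and 17.2% and 15.0% in the other LKO libraries. These are shares of FPKM and say nothing of protein.

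**Figure D2:**
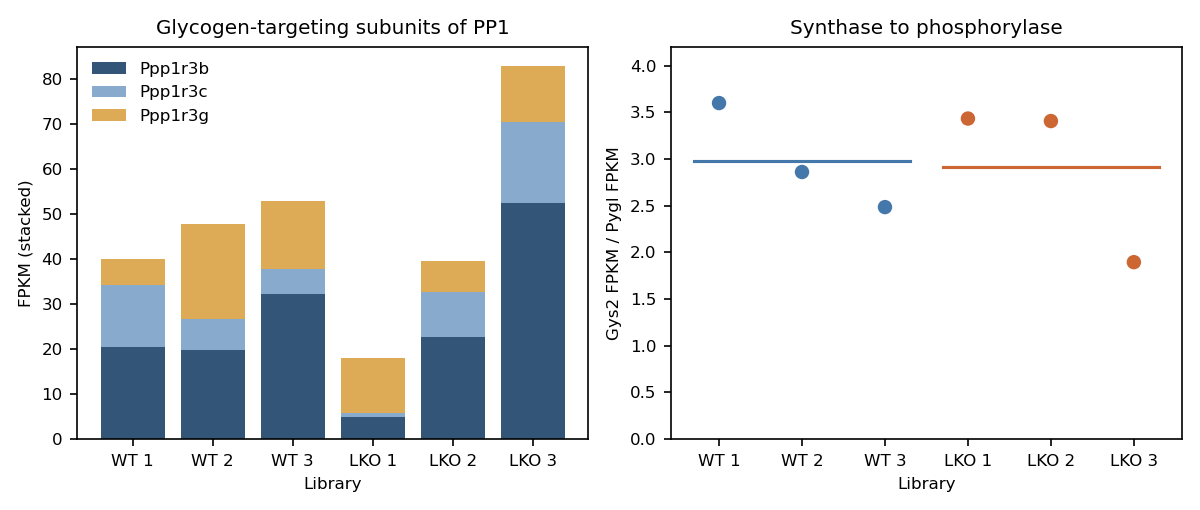
Left, stacked FPKM of the 3 glycogen-targeting subunits of PP1 in each library; right, the ratio of Gys2 FPKM to Pygl FPKM in WT (blue) and LKO (orange), with lines at the group means. LKO 1 has the smallest subunit sum (18.0 FPKM) and LKO 3 the largest (82.9 FPKM), and the ratio overlaps between genotypes.

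Synthase exceeded phosphorylase in every library. The ratio of Gys2 to Pygl FPKM, in which the scale of a library cancels, was 3.60, 2.86 and 2.48 in WT and 3.43, 3.41 and 1.90 in LKO. LKO replicate 3, with the highest Pygl, had the lowest ratio. On the log2 scale the means were 1.56 ± 0.270 and 1.49 ± 0.492 (SD, n = 3), a difference of -0.07 (two-sided exact permutation test, p = 0.8, where 3 against 3 cannot go under 0.1). The difference changed sign with single libraries left out, between -0.21 and 0.21.

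By level per length, Gys2 and Ugp2 were the highest of the 9 in all 6 libraries and Pygl came next in all 6. Gys2 and Ugp2 overlapped, and Ugp2 was the higher in WT replicates 2 and 3. In WT, Ugp2 stayed above Pygl in every library, and Pygl and Ppp1r3b overlapped. Ppp1r3g, Ppp1r3c and Gbe1 overlapped with each other, and Phkg2 and Phka2 were lowest by mean. In LKO replicate 1 the order of the low genes differed: there Ppp1r3c and Gbe1 were at the bottom, under both kinase subunits.

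Gbe1, Ppp1r3b and Ppp1r3c spread widely within LKO. The highest LKO library exceeded the lowest by 17.6-fold for Gbe1, 10.9-fold for Ppp1r3b and 20.1-fold for Ppp1r3c, against 2.74-fold, 1.62-fold and 2.56-fold within WT. Their SDs within LKO on the log2(FPKM + 1) scale were 1.79, 1.62 and 1.74, larger than those of 99.2%, 98.7% and 99.0% of all genes tested. The other 6 were less spread, from 1.59-fold for Phka2 to 3.03-fold for Pygl within LKO. An SD larger in LKO than in WT held for 6 of 9 (66.7%), near the 68.7% over all genes.

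A pattern noticed after the values were seen was LKO replicate 1 below and LKO replicate 3 above every WT library. It held for 5 of the 9 genes (Gbe1, Pygl, Ppp1r3b, Ppp1r3c and Phka2) and for 13.7% of all genes tested, and no test was made of it. Across the 6 libraries Gbe1 and Pygl ran together most closely (Pearson r = 0.99 on log2(FPKM + 1)). Ugp2 with Pygl (r = 0.88) and Ppp1r3b with Ppp1r3c (r = 0.86) came next. Phkg2 ran against Ugp2 (r = -0.80). These correlations describe 6 libraries that share a scale and a depth each, and 316 of 9764 other genes also had r over 0.95 with Pygl.

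**Figure D3:**
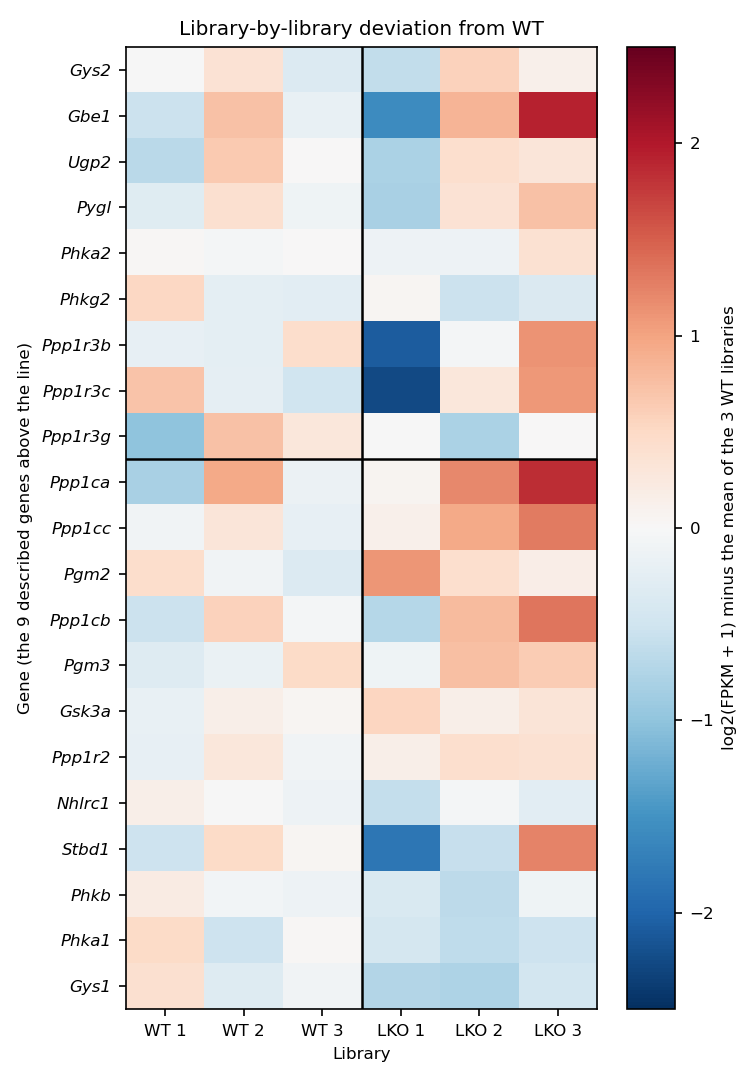
Log2(FPKM + 1) of each gene in each library minus its mean over the 3 WT libraries, with the 9 glycogen genes above the horizontal line and the 12 other pathway genes named in the text below it. Red is above the WT mean and blue below; LKO 1 is blue and LKO 3 red for Gbe1, Ppp1r3b and Ppp1r3c, and also for Stbd1.

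The promoters of Pygl, Gbe1 and Ppp1r3c, from 250 bases before to 50 bases after the RefSeq start (build GRCm38.p6), are shown because Gbe1 and Ppp1r3c had the widest spread within LKO and Pygl ran closest to Gbe1. RefSeq's table held promoters for 7 of the 9 genes; Gys2 and Ppp1r3b were not among them. Each is printed 5′ to 3′ on the strand of the gene, and capitals mark matches to any of 4 motifs searched on both strands. The Pygl promoter lies at chr12:70227634-70227933 (minus strand), that of Gbe1 at chr16:70313699-70313998 (plus strand) and that of Ppp1r3c at chr19:36736555-36736854 (minus strand).
Pygl: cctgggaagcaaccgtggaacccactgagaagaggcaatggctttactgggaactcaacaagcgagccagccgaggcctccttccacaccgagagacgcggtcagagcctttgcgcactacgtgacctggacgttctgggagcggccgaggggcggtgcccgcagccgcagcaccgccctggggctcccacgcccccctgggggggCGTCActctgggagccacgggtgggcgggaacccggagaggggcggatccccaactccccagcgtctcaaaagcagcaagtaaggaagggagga
Gbe1: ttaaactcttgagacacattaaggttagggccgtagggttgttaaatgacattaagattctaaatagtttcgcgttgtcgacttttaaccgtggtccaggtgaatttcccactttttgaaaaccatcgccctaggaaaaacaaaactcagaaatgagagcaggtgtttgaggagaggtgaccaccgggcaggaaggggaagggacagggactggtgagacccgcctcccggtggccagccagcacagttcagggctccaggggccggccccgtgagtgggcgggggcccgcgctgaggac
Ppp1r3c: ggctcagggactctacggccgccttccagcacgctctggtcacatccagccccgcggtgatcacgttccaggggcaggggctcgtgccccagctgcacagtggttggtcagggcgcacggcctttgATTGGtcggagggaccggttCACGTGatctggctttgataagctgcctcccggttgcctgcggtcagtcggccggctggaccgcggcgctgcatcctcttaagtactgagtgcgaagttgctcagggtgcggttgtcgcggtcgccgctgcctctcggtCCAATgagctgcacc

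One motif was the E-box, CACGTG, found in 7.15% of all 32851 RefSeq promoters of this length (300 bases). The next was the half-site of the cAMP response element, TGACG, found in 20.8%. A CCAAT box, spelled as named, was in 37.4%. The TATA box, searched as TATAAA, was in 13.6%. No match in these promoters overlapped another. Ppp1r3c held 1 E-box, at bases 147 to 152 of the window, and 2 CCAAT matches. Pygl held 1 half-site on the opposite strand, and Gbe1 held none of the 4. Of the 2 windows listed for Ugp2, 1 held 2 CCAAT matches and the other none of the 4 motifs. The matches are letters in a window, not sites.

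The share of reads on the mitochondrial genome moved with the level of the group. Median deviations of the 9 genes from the WT mean were -0.20, 0.36 and -0.10 (log2) in the WT libraries and -0.79, 0.27 and 0.37 in the LKO libraries. Mitochondrial genes took 20.7%, 10.2% and 18.5% of reads in WT and 27.6%, 7.72% and 4.76% in LKO. The 3 libraries with the least mitochondrial reads thus had the highest glycogen gene levels, and LKO replicate 1, with the most, had the lowest. The 22 other pathway genes tested had medians in the same order but for WT and LKO replicate 2, at -0.20, 0.20 and -0.06 in the WT libraries and -0.26, 0.21 and 0.40 in the LKO libraries. Over all genes tested the medians stayed near 0 but also followed the order of the mitochondrial share. They were -0.017, 0.016 and -0.005 in the WT libraries and -0.028, 0.038 and 0.041 in the LKO libraries. The part of the mitochondrial share in these differences was not tested.

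**Figure D4:**
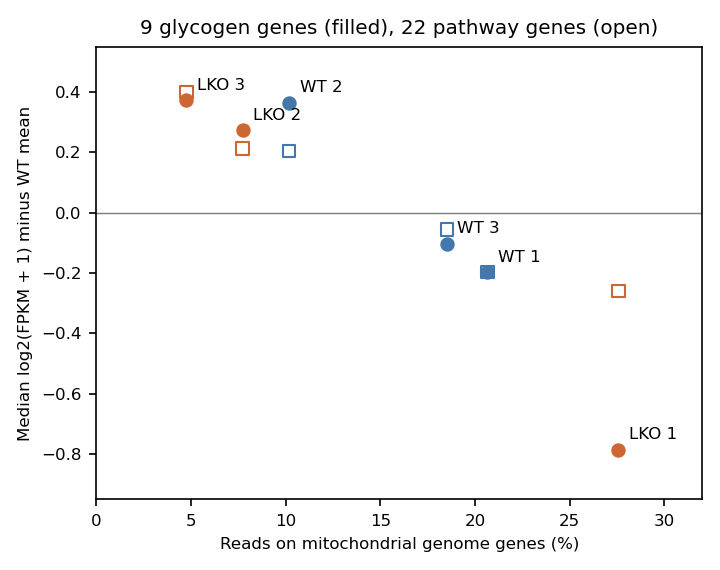
Median deviation from the WT mean on the log2(FPKM + 1) scale in each library against the percent of reads on mitochondrial genome genes, for the 9 glycogen genes (filled circles) and the 22 other pathway genes tested (open squares); blue is WT and orange LKO. Filled circles run from 0.37 at 4.76% (LKO 3) to -0.79 at 27.6% (LKO 1), and open squares from 0.40 to -0.26.

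Without both replicate 1 libraries, Gbe1 and Ppp1r3c were above WT in both remaining LKO libraries (log2 differences 1.11 and 1.03), and Ppp1r3g and Phkg2 were below (-0.89 and -0.19). None passed (limma adjusted p between 0.416 and 0.736), and with 2 libraries a group 47.1% of all genes did not overlap (25.9% above and 21.2% below). The remaining 5 overlapped, with log2 differences of 0.34 for Gys2, 0.03 for Ugp2, 0.40 for Pygl, 0.44 for Ppp1r3b and 0.13 for Phka2.

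Other genes of the pathway gave no call either. Of 30 listed by function, 22 passed the filter on low values, and 0 rose and 0 fell (limma, adjusted p of 0.05). Voom also called 0, and 1 had an unadjusted p under 0.05 (9.22% of all genes). The median log2 difference of the 22 was 0.10, beside 0.03 over all genes tested, with 14 above 0 and 8 below. Groups did not overlap for 2, with Gsk3a above in LKO and Gys1 below (backgrounds 8% above and 7.42% below).

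**Figure D5:**
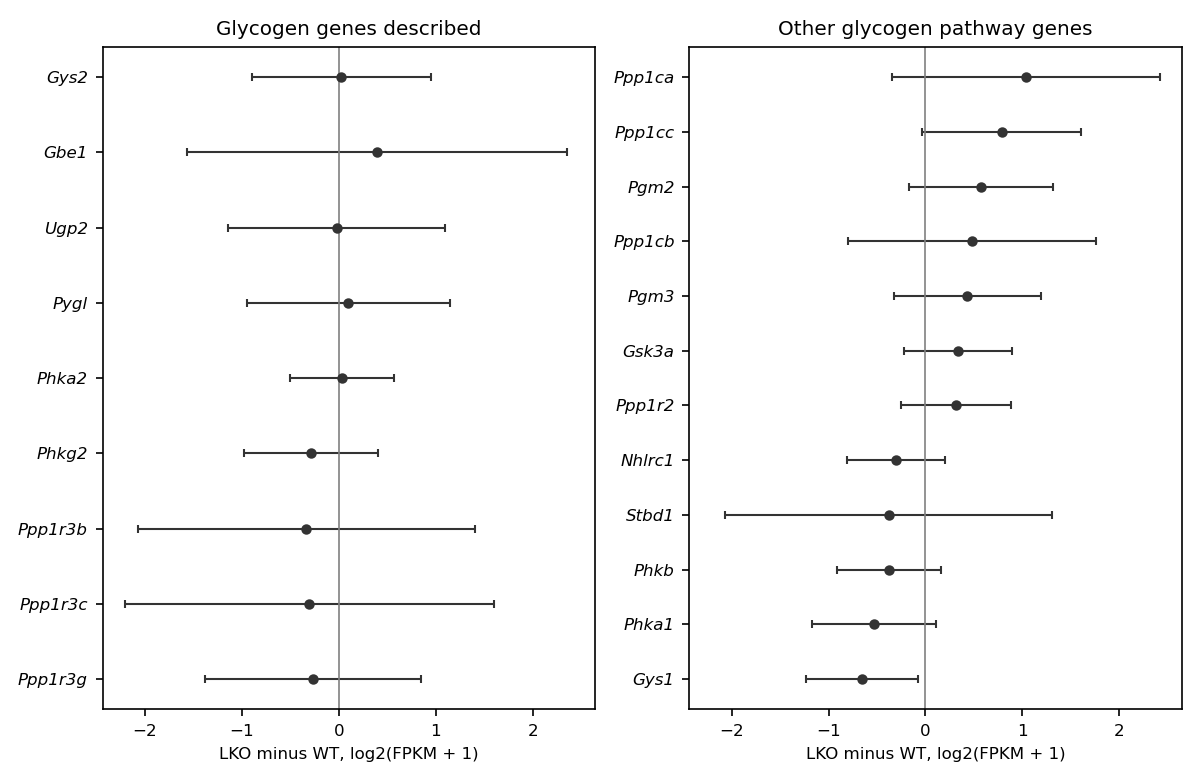
Log2 differences, LKO minus WT, on the log2(FPKM + 1) scale with limma 95% intervals, for the 9 glycogen genes (left) and the 12 other pathway genes named in the text (right). Every interval on the left spans 0, and on the right the unadjusted interval of Gys1 (-1.23 to -0.08) does not.

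Among the catalytic subunits of PP1, Ppp1cc was at 7.03, 9.41 and 6.32 FPKM in WT and at 8.28, 15.3 and 19.8 in LKO. Only LKO replicate 1 reached into the WT range (log2 difference 0.79 ± 0.35 SE, limma adjusted p = 0.569). With array quality weights Ppp1cc was the 1 pathway gene of 22 called (1.04, limma adjusted p = 0.0316), in a fit that called 10.2% of all genes. Ppp1cb averaged 3.67 ± 1.82 FPKM in WT and 6.21 ± 4.27 in LKO (SD, n = 3; limma adjusted p = 0.863). Ppp1ca averaged 26.6 ± 17.2 FPKM in WT and 54.9 ± 30.9 in LKO (SD, n = 3; limma adjusted p = 0.665). The inhibitor gene Ppp1r2 averaged 5.76 ± 1.24 and 7.34 ± 0.786 FPKM (limma adjusted p = 0.773). Gsk3a, a kinase that inactivates synthase, was at 6.44, 8.31 and 7.73 FPKM in WT and at 11.2, 8.40 and 9.64 in LKO, above WT by a narrow margin in LKO replicate 2 (log2 difference 0.34 ± 0.24 SE, limma adjusted p = 0.749).

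The isoforms known best from muscle and other tissues were low next to those of liver. Gys1 was at 1.56, 0.546 and 0.815 FPKM in WT and at 0.164, 0.134 and 0.396 in LKO, so every LKO library was below WT (log2 difference -0.65 ± 0.25 SE, limma adjusted p = 0.476). Summed markers of skeletal muscle were also lower in LKO, at 0.149 to 0.445 FPKM against 0.821 to 1.76 in WT, with 1 of 5 above 0 in every library. Of the defining muscle markers, Acta1, Ckm and Myh4 were listed at 0 in all 6. The part of these in the Gys1 values was not tested. Gys2 made up 98.5% to 99.6% of summed synthase FPKM in WT and 99.7% to 99.9% in LKO, and Pygl 97.9% to 99.1% of summed phosphorylase over all 6 libraries.

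The alpha subunit of phosphorylase kinase was the exception, with a larger share from a second isoform. Phka1 was at 2.39, 0.717 and 1.504 FPKM in WT and at 0.805, 0.572 and 0.706 in LKO (log2 difference -0.53 ± 0.27 SE, limma adjusted p = 0.621). Phka2 accordingly made up 55.5%, 79.7% and 66.3% of the pair in WT and 76.2%, 81.8% and 85.3% in LKO, with WT replicate 2 inside the LKO range. Phkb, the beta subunit, averaged 2.61 ± 0.446 FPKM in WT and 1.80 ± 0.533 in LKO (SD, n = 3; limma adjusted p = 0.695).

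LKO replicate 1 lay below and LKO replicate 3 above every WT library for 5 of the 22 other pathway genes (13.7% of all genes), Stbd1 and Ppp1cb among them. Stbd1, a glycogen-binding protein that links glycogen to lysosomes, was at 17.7, 36.3 and 26.8 FPKM in WT and at 6.73, 17.0 and 62.5 in LKO (log2 difference -0.38 ± 0.72 SE, limma adjusted p = 0.928). Nhlrc1, the ubiquitin ligase malin, averaged 1.04 ± 0.191 FPKM (WT) and 0.669 ± 0.317 (LKO; SD, n = 3; limma adjusted p = 0.752). Pgm2 and Pgm3 averaged 1.01 ± 0.569 and 1.65 ± 0.830 FPKM in WT and 2.02 ± 1.07 and 2.58 ± 1.05 in LKO (limma adjusted p = 0.652 and 0.767). Both are relatives of phosphoglucomutase 1, whose own, higher level is not given here. Pgm5, Pygb, Pygm, Phkg1, Ppp1r3a, Ppp1r3d, Ppp1r3f and Ppp1r1a were under a mean of 0.5 FPKM and were not tested.

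Genes of glucose entry and release were listed because both supply or drain the precursor of glycogen. G6pc, the phosphatase that releases glucose, was at 135, 155 and 177 FPKM in WT and at 313, 198 and 388 in LKO (log2 difference 0.90 ± 0.36 SE, limma adjusted p = 0.497). Every LKO library lay above WT for G6pc, as for 8% of all genes. Groups also did not overlap for 1 other gene of this list, with LKO below (7.42% of all genes). Of 6 genes tested in this list 0 passed, 2 had an unadjusted p under 0.05 (9.22% of all genes), and the median log2 difference was -0.06 (0.03 over all genes).

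Hormone signals set the balance of glycogen synthesis and breakdown. Adra1b, the alpha-1B adrenergic receptor abundant in rodent liver, averaged 34.9 ± 5.24 FPKM (WT) and 16.2 ± 5.23 (LKO; SD, n = 3; log2 difference -1.09 ± 0.31 SE, limma adjusted p = 0.337). Every LKO library lay below WT for Adra1b, which passed with array quality weights (limma adjusted p = 0.0158), as did 10.2% of all genes. The list for insulin, glucagon and adrenergic signalling also holds a pyruvate dehydrogenase kinase. Of the 20 tested genes of the list, 0 passed and 3 had an unadjusted p under 0.05 (9.22% of all genes). Groups did not overlap for 3 with LKO above (8% of all genes) and 1 with LKO below (7.42%).

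Genes known to follow feeding and the clock were listed because hepatic glycogen does so too. Of 16 feeding genes tested 0 passed, 3 had an unadjusted p under 0.05 (9.22% of all genes), and the median log2 difference was 0.05 (0.03 over all genes). Igfbp1, a gene repressed by insulin, averaged 36.5 ± 11.8 FPKM in WT and 320.3 ± 197 in LKO (SD, n = 3; log2 difference 2.85 ± 0.64 SE, limma adjusted p = 0.232). It passed without LKO replicate 3 (3.59, limma adjusted p = 0.0493), where 21 of all 11748 genes then tested did. That library had the lowest LKO value of Igfbp1 (445, 423 and 93.1 FPKM in LKO replicates 1 to 3). Igfbp1 also passed with array quality weights (limma adjusted p = 0.0101), as did 10.2% of all genes. Of 15 clock genes tested 0 passed, 4 had an unadjusted p under 0.05 (9.22% of all genes), and the median was -0.43 (0.03 over all genes). The clock repressor Nfil3 averaged 6.53 ± 2.04 and 20.4 ± 7.63 FPKM (limma adjusted p = 0.294), and Per3 at 6.43 ± 1.66 and 2.28 ± 1.28 (limma adjusted p = 0.320). The time of day and feeding state at which livers were taken are stated in no source used here, and their part in the glycogen genes was not tested.

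Genes most like the glycogen genes over the 6 libraries were looked up for Gys2, Pygl and Phkg2 among 9764 others with a mean of at least 1 FPKM. Highest for Gys2 were Ccnh (Pearson r = 0.979), Gm10297 (r = 0.978) and Oser1 (r = 0.972). Golga2, Fbp1 and Rnf13 were the highest for Pygl (each r = 0.995). Fbp1, the gluconeogenic fructose bisphosphatase, was at 90.2, 393 and 154 FPKM in WT and at 45.9, 363 and 626 in LKO. Among the highest for Phkg2 were Tmem51 (r = 0.991) and Cyb5r1 (r = 0.991), both highest in WT replicate 1. Likeness over 6 libraries is a description and has no p.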

How the data were processed

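Mouse liver RNA was sequenced in 3 WT and 3 Arid2 LKO libraries, each from 1 μg of RNA with a NEBNext Ultra kit, per the labels' protocols. Per the submitters' processing notes, mm10 was the build, and the tools, listed with no roles, included featureCounts 1.5.0-p3 and HISAT2 2.0.5. No source used here gives the annotation release, the strandedness of counting or any filter. The deposited values are FPKM, a unit read from the values: multiplied by merged exon length in GENCODE vM21 (54495 of 54532 identifiers), 96.1% to 96.4% of values above 0 fell within 0.05 of a whole read. At that depth 3 reads on 1 kb correspond to 0.156 to 0.236 FPKM, for counting error only.

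Genotype was tested with limma-trend (limma 3.58.1, R 4.3.3) on log2(FPKM + 1), robust, over 11672 genes (those averaging 0.5 FPKM or more), Benjamini-Hochberg adjusted over all of them, threshold 0.05. Differences on this scale understate changes of low genes. The fit was checked on simulated counts with the same spread in both groups. That tests the code, and not how the fit behaves with spreads like those within LKO. The glycogen genes and all lists were chosen with earlier results of these data known. Named were all 9 glycogen genes, Arid2, the 12 pathway genes with the smallest p, up to 4 genes with the smallest p of each further list, and the 3 genes most like Gys2, Pygl and the glycogen gene with the smallest p. Stbd1 was named in addition, after its values were seen. Some genes that the rule names are not reported here, though counts over the lists include them. Alternatives, all planned, were other pseudocounts (0.1), filters and scalings, a replicate block, left-out libraries, voom, array quality weights and a non-robust fit. Promoters come from RefSeq (GRCm38.p6).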

Additional observations from a re-analysis of the deposited data

How the results depend on the processing

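No alternative called any of the 9 glycogen genes. Over 144 refitted differences, counting each gene under each alternative, the lowest limma adjusted p was 0.129. The sign turned in 22 of them, for 8 of the 9 genes, and the cause was not tested. Some of the 144 could not turn: another filter, the replicate block and the non-robust fit leave the log2 difference itself unchanged. With 1 library left out, log2 differences ranged from -0.36 to 1.38 for Gbe1, -0.25 to 0.35 for Gys2, -0.13 to 0.12 for Phka2, -1.06 to 0.53 for Ppp1r3b, -0.99 to 0.67 for Ppp1r3c, -0.77 to 0.10 for Ppp1r3g, -0.22 to 0.55 for Pygl and -0.36 to 0.36 for Ugp2, and from -0.21 to 0.21 for the Gys2 to Pygl ratio. Quantile normalization gave -0.068 for Gys2 and -0.055 for Pygl. Without both replicate 1 libraries Ugp2 was at 0.025, Ppp1r3b at 0.44 and Ppp1r3c at 1.03. Array quality weights gave 0.23 for Ugp2, 0.51 for Ppp1r3c and -0.072 for Phka2. The 0 glycogen genes without overlap became 0 to 2 of 9 with 1 library left out and 4 of 9 without both replicate 1 libraries. Smaller groups overlapped less often among all genes too. There the share without overlap was 15.4% with every library kept and 47.1% once both replicate 1 libraries were dropped. In the single-library fits that separated any glycogen gene, it lay between 22.4% and 38.7%. The 0 pathway calls became 1 with array quality weights. The median difference of the 9 genes ranged from -0.25 to 0.36 with 1 library left out.

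Over all genes, the 5 calls became 1 without a filter, 2 without both replicate 1 libraries, 3 with FPKM rescaled to the same sum and 3 with quantile normalization. They became 1195 with array quality weights, which ran from 0.299 (LKO replicate 1) to 5.44 (WT replicate 3), and 0 to 21 with 1 library left out. With the replicate number as a block, 0 genes were called. The Gys2 to Pygl difference of -0.07 cannot move with that block, because each group holds each number once. Same-numbered libraries correlated in their deviations from the group means at 0.49, 0.30 and -0.02, so the numbers were not taken to pair the samples, and WT replicates 2 and 3 did not correlate best with their own number. With 3 libraries a group and 31.1 reads on Ppp1r3c in LKO replicate 1, small changes were not detectable. The intervals given are unadjusted and do not mark the limit of detection. Adra1b, with an interval of -1.82 to -0.37 that leaves out 0, was not called either (limma adjusted p = 0.337).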
